A study of Mus musculus with 28 samples.

Results

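The 10 genes described here are Gas7, Vim, Capg, Lcp1, Anxa1, Anxa2, Lgals1, Lgals3, Myo1f and Cotl1, a set of cytoskeletal, annexin and galectin genes of macrophages. They were picked by name from the 55450 genes of the deposited expression table with earlier results of these data known, and the early increase of Gas7 was part of the choice. Expression was measured by RNA-seq in 12 libraries of C10, a Pre-B line of the mouse derived from HAFTL cells, and promoter contacts were measured by Promoter Capture Hi-C (PCHi-C), which enriches ligated DNA fragments that include a promoter. All cells, the uninduced ones included, carried the CEBPalpha-ER transgene, a fusion of the myeloid transcription factor C/EBPα with the estrogen receptor. Each of the 4 time points (0h, which is uninduced, and 1h, 12h and 48h after addition of 100 nM β-estradiol, 10 nM IL-3 and CSF-1) had 3 biological replicates. By their labels the 1h, 12h and 48h groups differ in time alone. The authors state that the medium was replenished daily, so among these groups only the 48h cells had a change of medium. In comparisons with 48h its effect cannot be told apart from that of time. Whether the 0h cells had the cytokines is not given in the sources used here, and in comparisons with 0h the effects of the hormone and the cytokines cannot be told apart. All cells came from 1 line, so the replicates do not cover variation between lines.

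Macrophages crawl, spread and engulf particles, and all of these movements depend on a cortex of actin filaments that is bundled, capped, branched and pulled on by myosins. Vimentin forms the intermediate filaments that accompany actin in mesenchymal and myeloid cells. Annexins bind phospholipid membranes in the presence of calcium, and galectins bind β-galactosides on glycoproteins at the cell surface and inside the cell.

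The markers of the cell types were read first. The summed TPM (an abundance relative to all transcripts of the library and corrected for transcript length) of 7 Pre-B markers, among them Cd79a and Pax5, lay between 270.2 and 306.1 at 0h and between 23.95 and 34.54 at 48h. The summed TPM of 7 macrophage markers lay between 3.34 and 4.61 at 0h, between 187.0 and 271.8 at 12h and between 154.2 and 207.0 at 48h. Lyz2, the lysozyme of myeloid cells, made up most of that sum at 12h and 48h, and Adgre1, which encodes F4/80, stayed between 0 and 0.29 TPM in the 48h libraries. Of 6 neutrophil markers, whose sum reached 8.32 to 13.7 TPM at 12h and 1.33 to 3.43 TPM at 48h, Mpo and Ltf were at 0 in all libraries of both time points and Elane and Ly6g did not exceed 0.12 TPM. The other members of that list were called higher at 12h versus 0h: Camp, an antimicrobial peptide of granules, went from 0.06 to 8.69 TPM (limma adjusted p = 1.42e-05) and fell back to 0.363 at 48h, and S100a8, listed at 0 at 0h, had 1.78 TPM at 12h and 1.96 at 48h (limma adjusted p = 4.92e-05 and 1.46e-05). Camp thus stood highest at 12h, as Lcp1, Anxa1, Anxa2, Lgals1 and Cotl1 did, and the part of such cells in these results was not tested. All 5 fibroblast markers were at 0 in the 12 libraries, the sum of 4 T cell markers did not exceed 0.09 TPM and that of 4 dendritic cell markers did not exceed 0.32 TPM. In these bulk libraries a change in the share of cells that express a gene and a change in RNA per cell cannot be told apart.

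The promoter sequences come from RefSeq (GRCm38.p6), which held windows from 250 bases before to 50 bases after the start site for 7 of the 10 genes. Gas7, Lgals1 and Cotl1 had no entry. The windows of Anxa1 (chr19:20390622-20390921, minus strand), Anxa2 (chr9:69453433-69453732, plus strand) and Vim (chr2:13574061-13574360, plus strand) are printed because they held a match to 1 of 5 motifs searched on both strands, and the upstream window of Lcp1 (chr14:75130873-75131172, plus strand) is printed because the contacts of its fragment changed with time. Capitals mark the matches.
Anxa1: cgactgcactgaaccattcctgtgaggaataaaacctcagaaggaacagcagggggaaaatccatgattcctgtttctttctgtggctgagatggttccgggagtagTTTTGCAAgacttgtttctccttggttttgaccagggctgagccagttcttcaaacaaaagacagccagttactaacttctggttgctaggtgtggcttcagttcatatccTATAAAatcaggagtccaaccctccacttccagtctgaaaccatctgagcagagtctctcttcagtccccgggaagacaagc
Anxa2: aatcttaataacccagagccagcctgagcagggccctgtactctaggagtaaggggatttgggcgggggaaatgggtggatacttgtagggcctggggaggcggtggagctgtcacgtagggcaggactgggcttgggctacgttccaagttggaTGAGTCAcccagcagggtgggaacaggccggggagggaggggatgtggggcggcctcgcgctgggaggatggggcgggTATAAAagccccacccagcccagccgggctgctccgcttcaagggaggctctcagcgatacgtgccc
Vim: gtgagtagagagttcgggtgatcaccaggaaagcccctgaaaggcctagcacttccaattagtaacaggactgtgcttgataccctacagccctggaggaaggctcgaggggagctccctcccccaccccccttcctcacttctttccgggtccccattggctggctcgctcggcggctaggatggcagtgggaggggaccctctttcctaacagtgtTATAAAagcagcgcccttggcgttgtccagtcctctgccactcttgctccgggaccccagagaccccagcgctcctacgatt
Lcp1: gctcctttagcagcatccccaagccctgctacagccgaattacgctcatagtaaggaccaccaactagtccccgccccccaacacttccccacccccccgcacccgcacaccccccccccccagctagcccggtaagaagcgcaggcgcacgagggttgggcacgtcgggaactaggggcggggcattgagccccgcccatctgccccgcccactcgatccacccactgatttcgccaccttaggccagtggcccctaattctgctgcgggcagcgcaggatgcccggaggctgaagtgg
A TATA box (TATAAA) began at position -32 in Anxa1, at -17 in Anxa2 and at -32 in Vim, and 13.6% of all 32817 RefSeq windows held one. The window of Anxa1 also held the C/EBP pattern TTGCNNAA, as TTTTGCAA on the printed strand at position -143, which 10.8% of all windows held. The window of Anxa2 held the AP-1 pattern TGANTCA as TGAGTCA at position -95, against 7.81% of all windows. No match to the PU.1 core GAGGAAGT (3.2% of all windows) or to the CArG box (1.63%) stood in the windows of the 7 genes, and those of Capg, Lgals3, Myo1f and Lcp1 held none of the 5 motifs. A match of letters is a description of the sequence and no evidence of binding. By base composition the upstream Lcp1 window had 66.3% G and C with 19 CG pairs and the Anxa1 window 47.3% with 3, where the median window had 52.7% and 7.

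Differences were tested with limma on log2(TPM + 0.1) over the 16415 genes whose mean TPM reached 0.1, with Benjamini-Hochberg adjustment, and a gene was called at an adjusted p under 0.05. All 10 genes passed the filter, but Lgals3, with a mean of 0.133 TPM, did so through the 12h libraries in which it was highest. Its mean over the 9 libraries of the other time points was 0.0611 TPM, where that of Anxa2, the next lowest, was 0.178. The median gene shifted versus 0h by 0.59 (1h), 0.34 (12h) and -0.18 (48h) on the log2 scale, and by -0.62 at 48h versus 12h. The TPM left outside the 20 most abundant genes ranged from 58343 to 131784 per library. After median-of-ratios scaling between libraries these shifts were 0.02, 0.07, 0.07 and -0.01, and scaled values are given where they change a call. The 12h and 48h libraries of replicate 3 had the largest size factors of their time points (1.35 and 0.752), whereas its 0h and 1h libraries had the smallest (0.84 and 1.33). Of the 10 genes, 9 had their highest 12h TPM in replicate 3. The replicate 3 libraries stood apart as a set: their deviations from the means of their time points correlated with one another in all 6 pairs (r from 0.0698 to 0.257, over genes). In all 24 pairs with other libraries r was below 0. Since the 3 deviations of a gene within a time point sum to 0, this largely follows from the 6 pairs and is no separate result. Without replicate 3 of every time point 3 genes were called at 1h versus 0h (Vim, Lcp1 and Anxa1), 8 at 12h versus 0h, 6 at 48h versus 0h, 6 at 12h versus 1h and 5 at 48h versus 12h. The calls lost were those of Anxa2, Lgals1, Myo1f and Cotl1 at 1h versus 0h, Cotl1 at 12h versus 1h and Myo1f at 48h versus 12h.

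The actin-binding genes rose together by 12h and then parted. Lcp1 encodes L-plastin, which cross-links actin filaments into bundles (ENSMUSG00000021998, chromosome 14, 75131101 to 75230842, GRCm38, plus strand). Its level in replicates 1, 2 and 3 was 28.57, 23.36 and 21.6 TPM at 0h, 46.28, 44.62 and 37.71 at 1h, 106.22, 110.6 and 134.0 at 12h, and 51.33, 59.5 and 56.66 at 48h. The 12h libraries were the highest, and no library of one time point overlapped another time point. The log2 fold change was 2.25 at 12h versus 0h (SE 0.16, limma adjusted p = 1.94e-06) and -1.06 at 48h versus 12h (SE 0.16, limma adjusted p = 0.00043). At 1h Lcp1 was 0.81 higher on the log2 scale (limma adjusted p = 0.00496), which after scaling became 0.15 (limma adjusted p = 0.37). The fall after 12h was -0.31 after scaling (limma adjusted p = 0.0356) and lost its call with TPM rescaled without the 20 most abundant genes (-0.51) and with quantile normalization (-0.27). At 48h Lcp1 stayed 1.19 above 0h (limma adjusted p = 9.29e-05). Exon sequence of Lcp1 overlaps Gm15628 and Gm15629 on the opposite strand.

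Capg, a gelsolin-family protein that caps the growing end of actin filaments (ENSMUSG00000056737, chromosome 6, 72544391 to 72562983, plus strand), had 5.0, 5.44 and 3.57 TPM at 0h, 3.44, 3.97 and 4.01 at 1h, 12.8, 16.74 and 23.16 at 12h, and 12.63, 12.58 and 26.88 at 48h. The 0h and 1h libraries overlapped, and every 12h and 48h library lay above both. The log2 fold change was 1.87 at 12h versus 0h (SE 0.31, limma adjusted p = 0.000937) and 1.80 at 48h versus 0h (SE 0.31, limma adjusted p = 0.000575). Between 48h and 12h it was -0.07 (SE 0.31, limma adjusted p = 0.9). At 1h the value was -0.27 (limma adjusted p = 0.549), and after scaling Capg was called lower there (-0.91, limma adjusted p = 0.0466).

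Cotl1, a coactosin-like protein that binds actin filaments (ENSMUSG00000031827, chromosome 8, 119809222 to 119840544, minus strand), had 20.17, 17.22 and 18.59 TPM at 0h, 45.3, 26.27 and 34.08 at 1h, 46.85, 52.32 and 81.69 at 12h, and 15.38, 10.38 and 13.71 at 48h. All 48h libraries lay below all 0h libraries. Cotl1 was 1.65 higher on the log2 scale at 12h than at 0h (SE 0.25, limma adjusted p = 0.00054) and then 2.16 lower, a log2 fold change of -2.16 at 48h versus 12h (SE 0.25, limma adjusted p = 7.67e-05). At 48h versus 0h the value was -0.52 (SE 0.25, limma adjusted p = 0.123), so a lower level than at the start did not pass the test. The increase at 1h, 0.88 (limma adjusted p = 0.0263), lost its call after scaling (0.22), and also without 0h replicate 2 (0.82) or 3 (0.88) or without 1h replicate 1 (0.68) or 3 (0.89). The step from 1h to 12h, 0.77 (limma adjusted p = 0.0496), stood at the threshold and lost its call when any of 9 single libraries was left out, with values from 0.53 without 12h replicate 3 to 0.85 without 12h replicate 2.

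**Figure D1:**
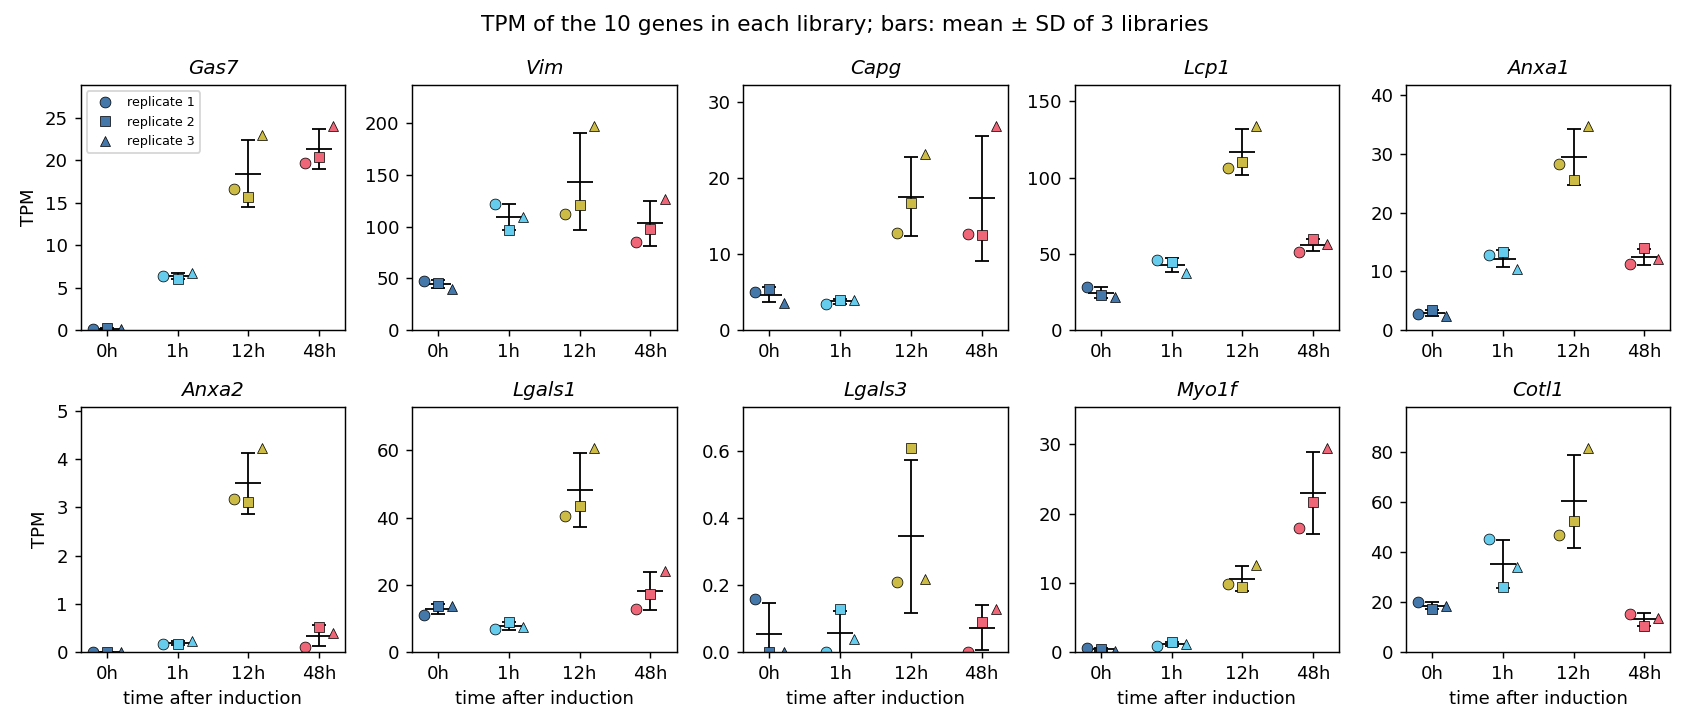
TPM (vertical axes, linear) of the 10 genes in each of the 12 libraries by time after induction, with circles, squares and triangles for replicates 1, 2 and 3 and bars for the mean ± SD of 3 libraries. Lcp1, Anxa1, Anxa2, Lgals1 and Cotl1 stood highest at 12h, Myo1f stood highest at 48h, and Lgals3 did not exceed 0.61 TPM.

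Myo1f and Gas7 act where actin meets the membrane. Among the genes tested against 0h and above 0 there, Myo1f had the largest log2 fold changes at 12h and 48h, and as deposited it was the 1 gene called higher at 48h than at 12h. Myo1f is a class I myosin, a single-headed motor that binds membranes through its tail and is found in immune cells (ENSMUSG00000024300, chromosome 17, 33555707 to 33607764, plus strand). It had 0.67, 0.42 and 0.19 TPM at 0h, 0.9, 1.53 and 1.21 at 1h, 9.89, 9.37 and 12.66 at 12h, and 17.92, 21.63 and 29.51 at 48h. No 2 time points overlapped, and their order followed time. The log2 fold change was 4.45 at 12h versus 0h (SE 0.34, limma adjusted p = 3.1e-06) and 5.54 at 48h versus 0h (SE 0.34, limma adjusted p = 1.85e-07). From 12h to 48h it was 1.09 (SE 0.34, limma adjusted p = 0.0266) and 1.83 after scaling (limma adjusted p = 0.000913). As deposited this last call was lost without 12h replicate 1 (1.04) or 2 (1.00) and without 48h replicate 2 (1.12) or 3 (0.89). The 1h value, 1.40 (limma adjusted p = 0.0128), lost its call after scaling (0.82) and without 1h replicate 2 (1.23).

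Gas7 is an F-BAR protein, a family whose curved domain binds bent membranes and which takes part in the formation of phagocytic cups (ENSMUSG00000033066, chromosome 11, 67455437 to 67688990, plus strand). Its TPM was 0.12, 0.25 and 0.13 at 0h, 6.34, 6.07 and 6.78 at 1h, 16.56, 15.72 and 22.95 at 12h, and 19.62, 20.4 and 24.04 at 48h. The mean TPM (± SD, n = 3) was 0.167 ± 0.0723 before induction and 6.40 ± 0.358 after 1h, a ratio of 38.4, and since this difference chose the gene it is given with no test. The ratio to 0h was 110.5 at 12h and 128.1 at 48h. The 12h and 48h libraries overlapped, with a log2 fold change of 0.23 (SE 0.22, limma adjusted p = 0.451). After scaling Gas7 was called higher at 48h than at 12h (0.97, limma adjusted p = 0.00435). Exon sequence of Gas7 overlaps Glp2r on the opposite strand, and no use of strand in the counting was stated.

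Vim, the vimentin gene (ENSMUSG00000026728, chromosome 2, 13573927 to 13582826, plus strand), was already abundant in the uninduced cells and had the highest mean of the 10 genes over the 12 libraries, 100.0 TPM. It had 47.14, 45.89 and 40.18 TPM at 0h, 121.57, 96.77 and 108.9 at 1h, 112.05, 120.79 and 197.39 at 12h, and 84.76, 97.97 and 126.7 at 48h. Every later library lay above every 0h library, and the 3 later time points overlapped. Vim was 1.29 higher on the log2 scale at 1h (SE 0.23, limma adjusted p = 0.00257) and 1.20 higher at 48h than at 0h (SE 0.23, limma adjusted p = 0.00112). The difference between 48h and 12h was -0.45 as deposited (limma adjusted p = 0.152) and 0.30 after scaling (limma adjusted p = 0.219), so its sign depended on the scaling and it passed the test under neither. From 1h to 12h the value was 0.35 (limma adjusted p = 0.298), which was called after scaling (0.68, limma adjusted p = 0.0112). Together with Anxa1, Vim was 1 of the 2 genes tested at 1h that were higher both as deposited and after scaling (0.63, limma adjusted p = 0.0293).

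Both annexins peaked at 12h, on very different levels. Anxa1, the annexin known for limiting inflammation (ENSMUSG00000024659, chromosome 19, 20373428 to 20390944, minus strand), had 2.69, 3.49 and 2.45 TPM at 0h, 12.78, 13.25 and 10.49 at 1h, 28.22, 25.57 and 34.78 at 12h, and 11.34, 13.98 and 12.11 at 48h. The 1h and 48h libraries overlapped, between the 0h and the 12h libraries. The log2 fold change was 2.05 at 1h versus 0h (SE 0.19, limma adjusted p = 3.98e-05) and 3.32 at 12h versus 0h (SE 0.19, limma adjusted p = 3.26e-07). At 48h it was 2.09 versus 0h (limma adjusted p = 3.45e-06) and -1.23 versus 12h (limma adjusted p = 0.000425). The fall after 12h was -0.48 after scaling (limma adjusted p = 0.0371) and lost its call with TPM rescaled without the 20 most abundant genes (-0.68).

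Anxa2, which forms a complex with S100a10 at membranes (ENSMUSG00000032231, chromosome 9, 69453620 to 69491795, plus strand), was listed at 0 in the 3 uninduced libraries. It had 0.17, 0.17 and 0.23 TPM at 1h, 3.17, 3.1 and 4.23 at 12h, and 0.11, 0.53 and 0.39 at 48h. The 1h and 48h libraries overlapped and all 12h libraries lay above both. No fold is given against 0h. The log2 fold change was 3.63 at 12h versus 1h (SE 0.39, limma adjusted p = 7.25e-05) and -3.15 at 48h versus 12h (SE 0.39, limma adjusted p = 0.000104). After scaling the fall was -2.55 (limma adjusted p = 0.000566). The difference between 1h and 0h passed as deposited (limma adjusted p = 0.0153) and not after scaling (limma adjusted p = 0.0683). Exon sequence of Anxa2 overlaps the antisense gene Gm16144, whose reads cannot be told apart from those of Anxa2 without strand.

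The galectins differed in level. Lgals1, a galectin that acts as a dimer (ENSMUSG00000068220, chromosome 15, 78926725 to 78930465, plus strand), had 11.08, 13.7 and 13.61 TPM at 0h, 6.78, 9.05 and 7.47 at 1h, 40.48, 43.37 and 60.76 at 12h, and 12.97, 17.25 and 24.19 at 48h. All 1h libraries lay below all 0h libraries, and Lgals1 was the 1 gene of the set called lower at 1h as deposited. The log2 fold change at 1h was -0.72 (SE 0.24, limma adjusted p = 0.0473), a call that was lost when any of 9 single libraries was left out (-0.63 without 1h replicate 1 to -0.83 without 1h replicate 2), whereas after scaling it was -1.37 (limma adjusted p = 0.00161). From 1h to 12h Lgals1 rose by 2.60 on the log2 scale (SE 0.24, limma adjusted p = 2.85e-05). From 12h to 48h the log2 fold change was -1.43 (SE 0.24, limma adjusted p = 0.000801), and at 48h versus 0h it was 0.46 (limma adjusted p = 0.148). That last value was called after scaling (0.87, limma adjusted p = 0.00439) and, as deposited, without 48h replicate 1 (0.68).

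Lgals3 encodes galectin-3, which is widely used as a marker of macrophages (ENSMUSG00000050335, chromosome 14, 47367751 to 47386160, plus strand). It was close to 0 throughout, with 0.16, 0.0 and 0.0 TPM at 0h, 0.0, 0.13 and 0.04 at 1h, 0.21, 0.61 and 0.22 at 12h, and 0.0, 0.09 and 0.13 at 48h. For Lgals3 the label of a macrophage gene was thus not borne out by its level in these cells. The 12h libraries lay above all others, with a log2 fold change of 1.59 (SE 0.57) versus 0h. Since these libraries admitted the gene to the test, this is a description, and Lgals3 was called in no comparison as deposited. At such levels the log2 values rest on the 0.1 that was added.

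By mean level at 48h the order was Vim, Lcp1, Myo1f, Gas7, Lgals1, Capg, Cotl1, Anxa1, Anxa2 and Lgals3, from 103.1 ± 21.4 to 0.0733 ± 0.0666 TPM (SD, n = 3). Vim and Lcp1 did not overlap each other or the rest, whereas Myo1f (23.0 ± 5.92), Gas7 (21.3 ± 2.36), Lgals1 (18.1 ± 5.66) and Capg (17.4 ± 8.24) overlapped. Capg, Cotl1 and Anxa1 also overlapped, and Anxa2 overlapped Lgals3 in range. At 0h the order was Vim, Lcp1, Cotl1, Lgals1, Capg and Anxa1, followed by Myo1f, Gas7, Lgals3 and Anxa2, all below 0.7 TPM.

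The calls of the 10 genes are read against those of all genes tested, and Gas7 was left out of every comparison but 48h versus 12h. The genes, and the lists of relatives below, were chosen with earlier results of these data known, so the counts are a description. At 1h versus 0h, 6 of 9 genes were higher and 1 lower, where 24.1% of all genes were higher and 1.41% lower. After scaling 2 were higher (Anxa1 and Vim) and 2 lower (Capg and Lgals1), against 5.42% and 4.92% of all genes. At 12h versus 0h, 8 of 9 were higher and 0 lower, as deposited and after scaling, against 22.3% higher and 7.82% lower (after scaling 16.0% and 14.5%). The gene not called was Lgals3. Its 12h libraries admitted it to the test, so its place in every count with 12h is a description and no test outcome. At 48h versus 0h, 6 of 9 were higher and 0 lower, against 15.9% and 27.2%. After scaling 7 were higher and 0 lower, with Lgals1 added, against 24.5% and 22.0%.

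From 1h to 12h, 7 of 9 were higher and 0 lower, against 6.98% and 15.0% of all genes, and after scaling 8 were higher, with Vim added, against 11.3% higher and 8.77% lower. From 12h to 48h, 5 of 10 were lower (Lcp1, Anxa1, Anxa2, Lgals1 and Cotl1) and 1 higher (Myo1f), against 31.7% lower and 4.1% higher among all genes. After scaling these 5 were again lower and 2 were higher, Myo1f and Gas7, against 11.9% and 10.5%. The comparisons against 0h share the 0h libraries, and those with 12h share the 12h libraries, so the counts are not independent of one another.

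**Figure D2:**
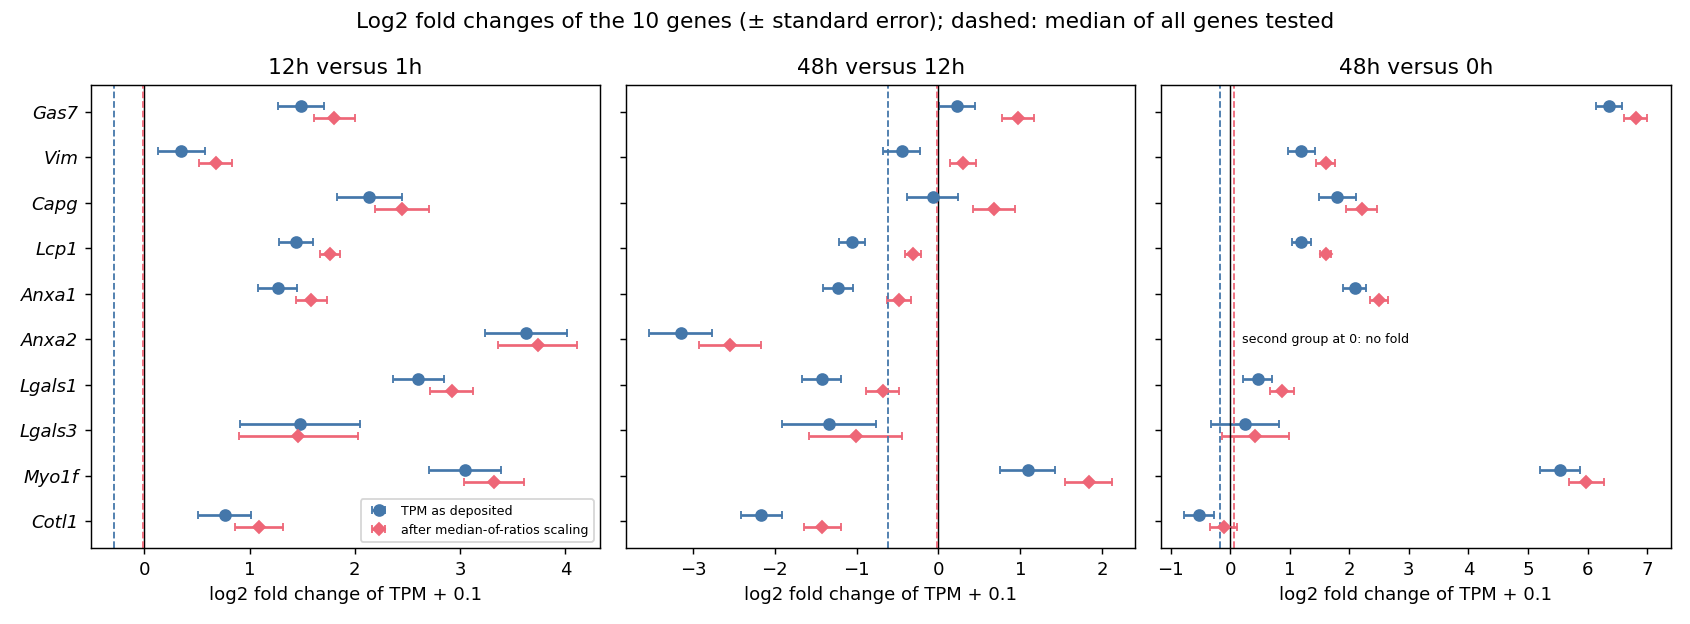
Log2 fold change of TPM + 0.1 (horizontal axes) of the 10 genes at 12h versus 1h, 48h versus 12h and 48h versus 0h (the last without Anxa2, listed at 0 at 0h), with blue circles for TPM as deposited, red diamonds for values after median-of-ratios scaling, bars for the standard error (SE) and dashed lines for the median of all genes tested. At 48h versus 12h the scaled values lie to the right of the deposited ones, and Lcp1, Anxa1, Anxa2, Lgals1 and Cotl1 lie below 0 on both scales.

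The genes most alike in expression were ranked by Pearson correlation of log2(TPM + 0.1) over the 12 libraries among 9331 genes with a mean of at least 1 TPM. These r values describe time courses that share libraries and carry no test. Gas7 was most alike to Gsap (r = 0.993), Stom (0.993), Atp7a (0.99), Soat1 (0.989) and Atp6v0a1 (0.987), and the last, a subunit of the proton pump that acidifies lysosomes, had 1.94 TPM uninduced, 35.8 at 1h and 103.0 at 48h. Lcp1 was most alike to Prune2 (0.989) and Arpc5 (0.987), Capg to Itm2c (0.98) and Slc6a6 (0.977), and Cotl1 to Sec61a1 (0.971) and Capzb (0.954). Arpc5 is a subunit of the Arp2/3 complex, which starts actin branches, and Capzb caps actin filaments. Anxa1 was most alike to Dgkg (0.987) and the kinase Fes (0.985), Anxa2 to the calponin Cnn2 (0.988) and Id1 (0.985), and Myo1f to Pde1b (0.99) and Dusp1 (0.989). Vim was most alike to Rab31 (0.971) and Atp10a (0.966), Lgals1 to Fhl3 (0.975) and the septin Sept9 (0.974), and Lgals3 to Wdr13 (0.867) and Edem2 (0.865), the lowest of these r values.

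The relatives of the 10 genes were followed at 48h versus 0h with the same fit. Of 7 other annexins tested, 6 were higher and 0 lower, with a median log2 fold change of 1.56 where that of all genes was -0.18. Of all genes tested 15.9% were higher and 27.2% lower in this comparison, and after scaling 24.5% and 22.0%, which is the background of each count of relatives at 48h versus 0h. Anxa4 rose from 1.51 ± 0.474 to 10.8 ± 1.74 TPM (SD, n = 3, log2 fold change 2.78, limma adjusted p = 2.64e-06), and Anxa3, listed at 0 at 0h, had 5.15 ± 1.01 TPM at 12h and 0.49 ± 0.301 at 48h (SD, n = 3). Of 3 S100 proteins tested, 2 were higher as deposited (background 15.9%) and 3 after scaling (24.5%), with a median of 1.92. S100a10, the partner of Anxa2, had 6.64 ± 1.13 TPM before induction, 12.7 ± 3.13 after 12h and 25.2 ± 2.03 after 48h (SD, n = 3), and S100a4 from 0.673 ± 0.617 to 8.76 ± 3.52. From 12h to 48h S100a10 was higher (log2 fold change 1.01, limma adjusted p = 0.0018), while Anxa2 was lower.

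The galectin list had 4 genes tested, Lgals4, Lgals8, Lgals9 and Lgals3bp, of which Lgals3bp is not itself a galectin. Of these, 2 were higher as deposited, Lgals8 and Lgals3bp (background 15.9%). After scaling 3 were higher, with Lgals9 added (24.5%). The median of 1.88 includes Lgals3bp. Lgals3bp, which encodes a secreted protein that binds galectin-3, had 0.137 ± 0.0702 TPM before induction, 0.373 ± 0.0777 after 12h and 16.9 ± 0.922 after 48h (SD, n = 3), a log2 fold change of 6.21 versus 0h (limma adjusted p = 2.48e-08). Lgals8 went from 1.55 ± 0.650 to 17.5 ± 0.405 TPM (SD, n = 3, log2 fold change 3.50, limma adjusted p = 9.56e-07). Among 4 gelsolin and plastin genes 3 were higher and 0 lower on both scales (median 0.77), against the same shares, among them Svil (log2 fold change 0.83, limma adjusted p = 0.0184) and Pls3 (1.22, limma adjusted p = 0.0103). Of 9 genes of the cofilin family, 1 was higher, Dbnl (0.54), and 2 lower, Gmfg (-1.17) and Cfl1 (-0.58), and after scaling 4 were higher and 1, Gmfg, lower (median 0.13 as deposited), where 27.2% and 22.0% of all genes were lower. Of 3 other class I myosins 0 were called at 48h versus 0h and 1 was higher after scaling (median 0.25 as deposited), and the 1 other intermediate filament gene tested, Des, was lower (-1.54, limma adjusted p = 0.0252) with a mean of 0.2 TPM at 48h.

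Of 15 other F-BAR genes tested, 6 were higher and 2 lower (8 and 1 after scaling), with a median of 0.23, against 15.9% and 27.2% of all genes (24.5% and 22.0% after scaling). Pstpip1 went from 3.38 ± 0.667 to 10.8 ± 1.25 TPM (SD, n = 3), and Pstpip2, listed at 0 at 0h and 1h, had 3.89 ± 0.776 at 48h, while Fcho1 (-0.88 on the log2 scale) and Srgap3 (-1.03) were lower, Srgap3 only as deposited. Of 11 genes of actin and the Arp2/3 complex, 4 were higher and 2 lower (6 and 2 after scaling, median 0.18 as deposited), so the lower ones made up no larger share than the 27.2% of all genes, with Actr3 at 1.16 and Arpc5 at 1.08, and Arpc5l at -2.62 and Actg1 at -0.90. Of 18 genes of podosomes and phagocytic cups, 7 were higher and 3 lower (10 and 1 after scaling), with a median of 0.28, against 15.9% and 27.2% of all genes (24.5% and 22.0% after scaling). Tmsb4x, which encodes the actin monomer-binding thymosin β4, went from 18.7 ± 3.48 to 117.1 ± 17.5 TPM (SD, n = 3) and Zyx was listed at 0 at 0h, while Coro1a (-1.31) was lower on both scales and Pfn1 (-0.63) only as deposited.

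From 12h to 48h, 10 of the 11 actin and Arp2/3 genes and 13 of the 18 podosome genes were lower as deposited, against 31.7% of all genes. After scaling 1 and 8 were lower, against 11.9%. Higher were 0 and 1 as deposited, against 4.1%, and 1 and 3 after scaling, against 10.5%. At 12h versus 0h, 9 of the 11 and 15 of the 18 were higher, with 1 and 0 lower, against 22.3% higher and 7.82% lower. After scaling 9 and 12 were higher, with 1 and 0 lower, against 16.0% and 14.5%. Actg1, γ-actin, also stood highest at 12h, with 93.4 ± 5.21 TPM uninduced, 277.6 ± 34.0 after 12h and 51.0 ± 12.0 after 48h (SD, n = 3). The difference at 48h versus 12h was -2.46 (limma adjusted p = 2.83e-06).

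PCHi-C lists gave the fragments in contact with each promoter. Each list was called on 2 merged replicates with CHiCAGO at a score of at least 5, so there was 1 list a time point, and the numbers below have no replicate error and no test. Each gene was given the HindIII fragments (baits) that hold one of its annotated start sites. The 10 genes together had 95 (0h), 115 (1h), 109 (12h) and 111 (48h) listed interactions, and 53 of the 95 were also listed at 48h, where 55.9% of the interactions in the whole 0h list were. Over 23193 genes with a bait the median was 5 interactions at each time point.

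Of the 10 genes, Lcp1, Capg, Cotl1 and Vim had the most interactions. Lcp1 had 7, 14, 32 and 39 in the order of time. Its number at 0h was reached or undercut by 61.7% of all genes and its number at 48h by 95.7%. Of the 39 at 48h, 35 were not listed at 0h, and 19 of these had no fragment within 10 kb listed at 0h for the same bait. Lcp1 has 1 bait at its first start site, shared with Lrrc63, and 1 inside the gene, shared with the antisense gene Gm15629. The upstream bait, which holds the printed promoter, had 0, 1, 12 and 11 interactions at the 4 time points. With 0 at 0h, all 11 of its 48h interactions are among the 19, also where the inner bait had a 0h fragment nearby. Most of the new ones lay in a run of neighbouring fragments from -95 to -43 kb of the gene start (negative values are upstream), where 3 fragments, at -74, -71 and -50 kb, were in contact with the inner bait at all 4 time points. The TPM of Lcp1 was lower at 48h than at 12h, while its number of listed interactions over both baits was higher (39 against 32). That of the upstream bait alone was not (11 against 12).

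Vim had 20, 15, 19 and 26 interactions. Of its 27 fragments, 14 were listed at all 4 time points, all of them between -301 and -264 kb, and the outermost of these holds the start of Rsu1. Over all interactions of the series listed at any time, 17.6% were listed at all 4 time points. The 7 listed at 48h and not at 0h lay at -246 kb or nearer, 2 of them beyond 10 kb of any 0h fragment, and the nearest at -137 kb.

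Capg had 31, 33, 20 and 14 interactions and Cotl1 had 23, 29, 16 and 14. For Capg 9 fragments were listed at 0h and 1h and at neither later time, and 11 at all 4 time points, between -184 and -92 kb, among them the baits of Vamp8, Vamp5 and Mat2a, the last with a 0h score of 22.3. Cotl1 kept 12 fragments at all 4 time points, among them 7 from 26 to 65 kb and 4 from -91 to -81 kb. At 48h 2 interactions of Capg and 1 of Cotl1 were not listed at 0h. Capg, whose TPM was higher at 48h than at 0h, thus had fewer listed interactions at 48h, and Cotl1, whose TPM difference was not called, also had fewer. The RefSeq start sites of Capg and Lgals3 are not on a bait, and other annotated start sites of these genes placed theirs.

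The remaining 6 genes had at most 8 interactions at any time point. Gas7 had 6, 7, 6 and 5 at the 4 time points, and 1 fragment, at 226 kb, was listed at all 4. Its 0h scores lay between 5.03 and 5.49, close to the threshold. Over the 4 time points its fragments were at 120 kb and from 204 to 233 kb, in the gene itself, and at 239, 243, 257, 293 and 315 kb, past its end. The one at 239 kb is the bait of Rcvrn, and the one at 315 kb, listed at 0h and 1h, is the bait of Glp2r. Anxa1 had 2, 4, 7 and 3 interactions, with 0 listed at both 0h and 48h. Anxa2 had 1, 5, 3 and 2, and its contact with the bait of Ice2 at -55 kb was listed at all 4 time points. Lgals1, on a bait shared with Nol12, had 5, 8, 4 and 1. Lgals3, whose bait is only 279 bases long, had 0, 0, 1 and 6, and Myo1f had 0, 0, 1 and 1, where 15.0% of all genes had none at 0h and 12.2% at 48h.

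**Figure D3:**
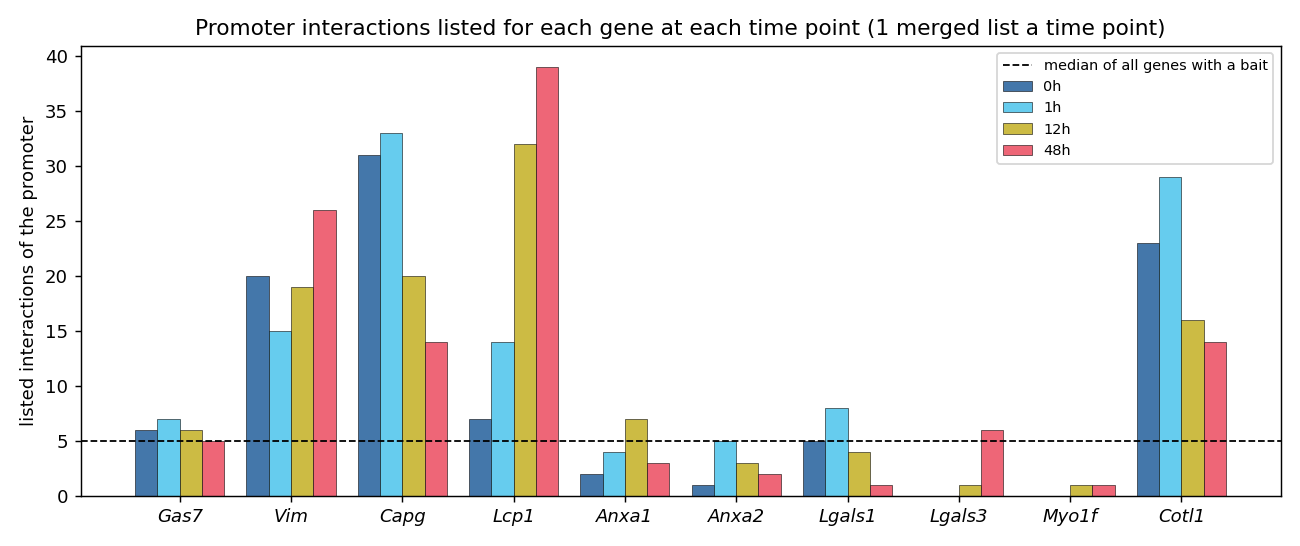
Number of listed promoter interactions (vertical axis, linear from 0) of each of the 10 genes at 0h, 1h, 12h and 48h, from 1 merged list a time point, with a dashed line at the median of all genes with a bait, 5. Lcp1 goes from 7 to 39, Capg from 31 to 14 and Cotl1 from 23 to 14.

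**Figure D4:**
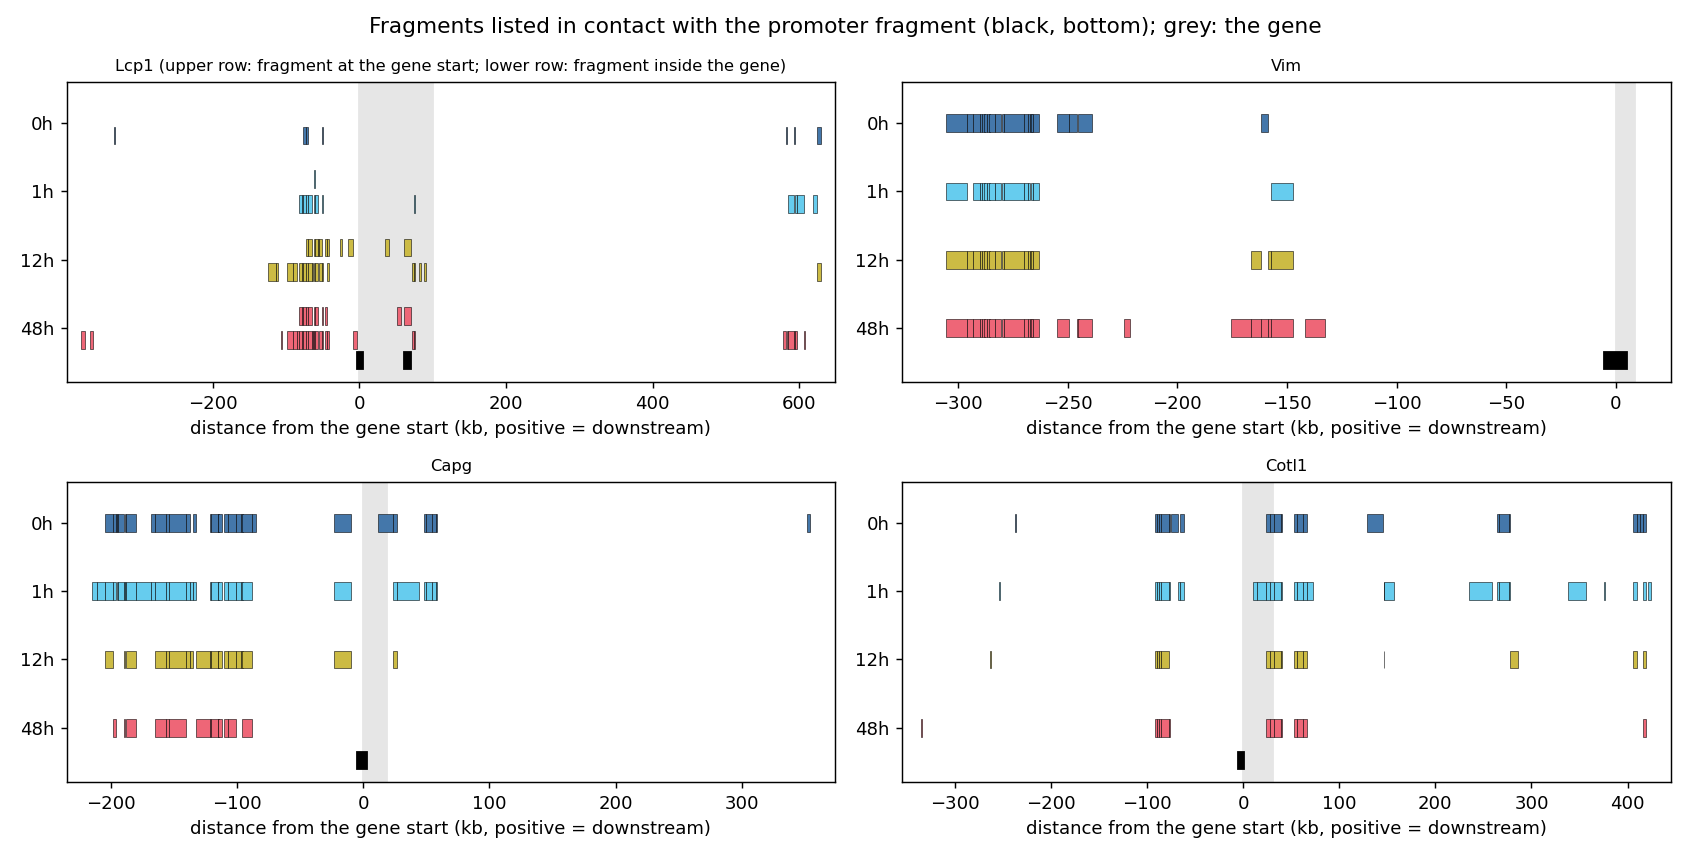
Positions of the fragments in contact with the promoter fragments of Lcp1, Vim, Capg and Cotl1 at the 4 time points, as distance from the gene start in kb (horizontal axes, positive downstream), with boxes drawn to the length of each fragment (at least 1 kb), the promoter fragments in black and the gene in grey. For Lcp1 the boxes from -95 to -43 kb begin to fill in at 1h and fill in further at 12h and 48h, whereas for Vim the block from -301 to -264 kb is present at all 4 time points.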

How the data were processed

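The 12 RNA-seq libraries and 4 PCHi-C lists were analysed, without the Hi-C libraries. To make the expression table the authors trimmed reads (Trim Galore 0.6.2), used HISAT2 2.1.0 and RSEM with mm10, and deposited TPM per gene. The kit does not mark strand. TPM keep no depth, and the sequencing depth that the authors describe in their supplement was not used here. PCHi-C interactions were called by the authors with CHiCAGO after merging 2 replicates. In the deposited list for 0h each interaction has a score. The deposited 1h, 12h and 48h lists hold whole numbers of a unit not given in the sources used here, and only the presence of a pair was used.

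The test was limma 3.58.1 under R 4.3.3 (all 12 libraries in 1 model, eBayes with a mean-variance trend, contrasts, Benjamini-Hochberg adjustment) of log2(TPM + 0.1) for genes with a mean of at least 0.1 TPM. A fold change on this scale understates the change of low genes. Other steps used Python 3.11.15, numpy 2.4.6 and pandas 2.3.3. All 55450 genes matched GENCODE M21 on GRCm38, which gave gene positions and start sites.

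The 10 genes and the lists were chosen with earlier results of these data known. Named besides them are, from each list, up to 2 genes with the largest increase and 2 with the largest decrease among those called at 48h versus 0h, the genes most alike to each member (5 for Gas7, 2 for the others), and markers. Alternatives varied the pseudocount, filter, scaling, trend, libraries, block, replicates, fold threshold, start sites, score and fragment distance.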

Additional observations from a re-analysis of the deposited data

How the results depend on the processing

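Of the genes tested at 1h versus 0h, 7 were called as deposited, 4 with median-of-ratios scaling, 4 with quantile normalization, 3 with TPM rescaled without the 20 most abundant genes and 3 without replicate 3 of every time point. A log2 fold change beyond 1 left 4, and beyond 2 it left 1. Beyond 2 on the log2 scale, the 8 called at 12h versus 0h became 4, the 6 at 48h versus 0h became 3, the 7 at 12h versus 1h became 4 and the 6 at 48h versus 12h became 2. When replicates were left out the counts ranged from 3 to 7 at 1h versus 0h (5 to 7 where a single library was left out), from 8 to 9 at 12h versus 0h, from 6 to 7 at 48h versus 0h, from 6 to 7 at 12h versus 1h and from 5 to 6 at 48h versus 12h. Libraries with the same number correlated in their deviations from the group means by -0.0123 to 0.257 over 18 pairs (other pairs -0.181 to 0.11), and 7 of 12 libraries were most alike to one of their own number. The higher values came from replicate 3, whose libraries stood apart as a set (0.0698 to 0.257), and since not every pair passed 0.1 the numbers were not taken as pairing. With the replicate number as a block, 7 were called at 1h versus 0h, 8 at 12h versus 0h, 6 at 48h versus 0h, 7 at 12h versus 1h and 6 at 48h versus 12h, the same counts as without it. A score of at least 10 left 25 of the 95 interactions at 0h. Of the 58 listed at 48h and not at 0h, 35 had no fragment within 10 kb listed at 0h for the same bait. These include all 11 of the upstream Lcp1 bait, which had 0 at 0h. With median-of-ratios scaling, an alternative chosen after seeing the data for the lists of relatives, calls at 48h versus 0h went from 3 to 5 in the cofilin family and from 0 to 1 in class I myosins. The cause of these changes was not tested. TPM below about 1, as in Lgals3, Anxa2 at 1h and 48h, and Myo1f and Gas7 at 0h, and the single merged PCHi-C list a time point limit what these data can show.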
